A study of Drosophila melanogaster with 4 samples.

Results

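The achaete-scute complex lies near the distal tip of the X chromosome of Drosophila melanogaster. It holds 4 genes of neural development, achaete (ac), scute (sc), lethal of scute (l(1)sc) and asense (ase). Hairy-bound regions were assigned to the complex by position, as the peaks whose midpoint lay beyond base 230000 and no further than base 370000 on the X of Release 5 of the genome. Of 8958 Hairy peaks in the list, 1379 lay on the X and 1 lay in this window of 140 kb. The peaks came from chromatin immunoprecipitation and sequencing (ChIP-seq), in which DNA crosslinked to a protein is recovered with an antibody and sequenced. DNA recovered with the Hairy antibody was sequenced in 2 libraries and input DNA in 2, all from whole embryos of unknown sex. The antibody was a rabbit polyclonal serum, KW3-h-D1, raised against a stretch of the Hairy protein. All embryos carried the X-linked alleles y[1] and oc[R3.2]. The other alleles listed were cn[1], bw[1], sp[1], Gr22d[1], Gr22b[1] and CG33964[R4.2], and, in the last group of the genotype, Rh6[1], GstD5[1], LysC[1], MstProx[1] and lab[R4.2], so ChIP and input shared every listed allele. Their age is labelled 0 to 8 h, whereas the collection protocol speaks of 8 to 16 h, and these cannot be reconciled from the labels. The peak list gives each peak a start, an end and a score of the authors whose scale is not named. It has no value per library, so the depth is unknown, no value below has a replicate error, and no p-value was computed.

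Proneural genes encode basic helix-loop-helix activators that give ectodermal cells the ability to become neural precursors. Together with the ubiquitous partner Daughterless they bind E-box sequences, while Notch signalling, acting through repressors of the Enhancer of split family, limits the number of cells that keep the neural fate. Hairy is a repressor that also has a basic helix-loop-helix domain and recruits the corepressor Groucho. It acts as a pair-rule segmentation protein in the early embryo, and in the developing adult leg and wing it is known as a direct repressor of ac that sets where bristles form. The question put to the peak list was how Hairy-bound chromatin is distributed over this target locus in the embryo.

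The 4 genes have distinct roles. Both ac and sc act in the sensory organs of the peripheral nervous system, and sc is also one of the X-linked elements that set sex by X dose. The gene l(1)sc acts mainly in neuroblasts of the central nervous system, and ase is switched on in neural precursors once they have been selected. In the RefSeq gene table for Release 6, all 4 genes were found on the X by symbol. Read from the telomere inward, the table lists y, lncRNA:yar, ac, lncRNA:CR44751, lncRNA:CR44752, lncRNA:CR44753, sc, l(1)sc, Pgcl, ase and Cyp4g1. A long protein-coding gene, CG32816, spans this whole stretch. The neighbours are a pigment gene (y) distally and a cytochrome P450 gene (Cyp4g1) proximally. This order comes from another build than the peaks, so it was used for names and neighbours and not for positions. The peak of the window is therefore not assigned to ac, sc, l(1)sc or ase, and whether the window holds all 4 genes on Release 5 was not tested.

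The achaete-scute window held 1 peak of middling score and no other. This peak lay on the X at 324264 to 324686, was 423 bp wide and scored 11.77. The distal 94263 bp of the window, up to the start of the peak, held no peak, and neither did the proximal 45314 bp beyond its end. The window named for 4 genes, among them a known target of Hairy, thus held 1 region past the authors' threshold. Sequence outside it was not listed, for reasons the sources used here do not give, and this is not a measurement of no binding.

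The peak stood far from any other. The nearest peaks outside the window lay at 160216 to 160728 on the distal side, toward the telomere, and at 412068 to 413350 on the proximal side. The distal neighbour scored 21.27 and was 513 bp wide, and the proximal neighbour scored 18.22 and was 1283 bp wide. Both neighbours thus scored higher and were wider than the peak of the window. Between the distal neighbour and the peak there were 163535 bp without a peak, the 20th longest of the 1378 gaps on the X. Gaps at least this long made up 1.45% of all X gaps, whose median was 3167 bp. The proximal gap of 87381 bp was the 59th longest. From the distal to the proximal neighbour, 251339 bp held this peak alone, the 18th longest of 1377 such stretches that hold 1 peak, with a median of 10986 bp on the X. The first 412067 bp of the X, from its first base to the proximal neighbour, held 2 peaks in all.

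**Figure D1:**
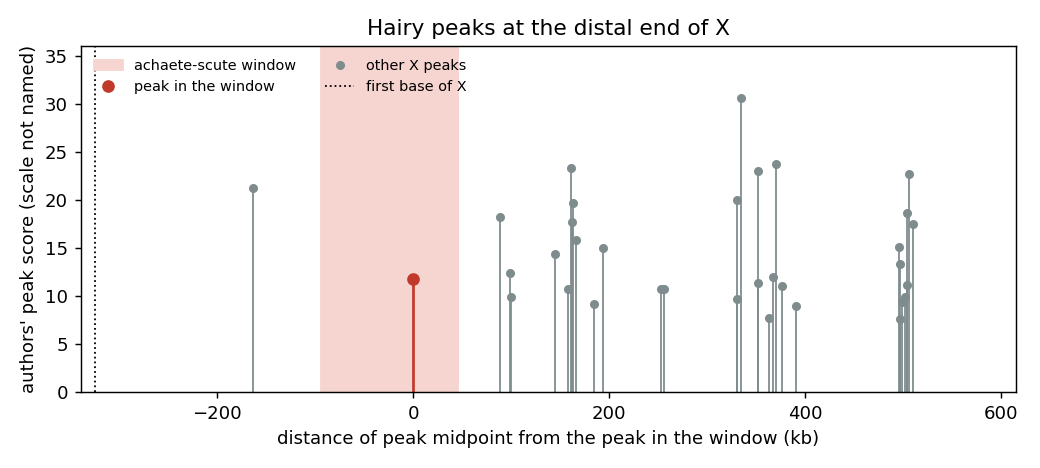
Each stem is a Hairy peak at the distal end of the X, placed by the distance of its midpoint in kb from the peak of the achaete-scute window, with the authors' score on the vertical axis. The shaded window holds 1 peak, with a score of 11.77, and the proximal neighbour lies 88.2 kb away, where peaks become more frequent.

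A minority of windows of the same size on the X held as few peaks, and the achaete-scute window was not the emptiest. The X was divided into adjacent windows of 140 kb in step with this one, which gave 158 complete windows. The achaete-scute window held 1 peak, or 7.14 peaks per Mb, against 62.3 peaks per Mb over all windows. The windows had a median of 7 peaks, quartiles of 3 and 12, and a highest count of 43. At most 1 peak was found in 24 of the 158 windows, or 15.2%, of which 11 had none. The share of windows with no more peaks than this one was 27.6% with the limits moved in by 20 kb and windows of 100 kb, and 8.84% when windows without a peak were left out. On 2L, 2R, 3L and 3R, 8.15% of windows of 140 kb held at most 1 peak. By bases under a peak, 0.302% of the achaete-scute window was covered, against a median of 2.37% for all windows. Coverage was this low or lower in 20 windows, or 12.7%.

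**Figure D2:**
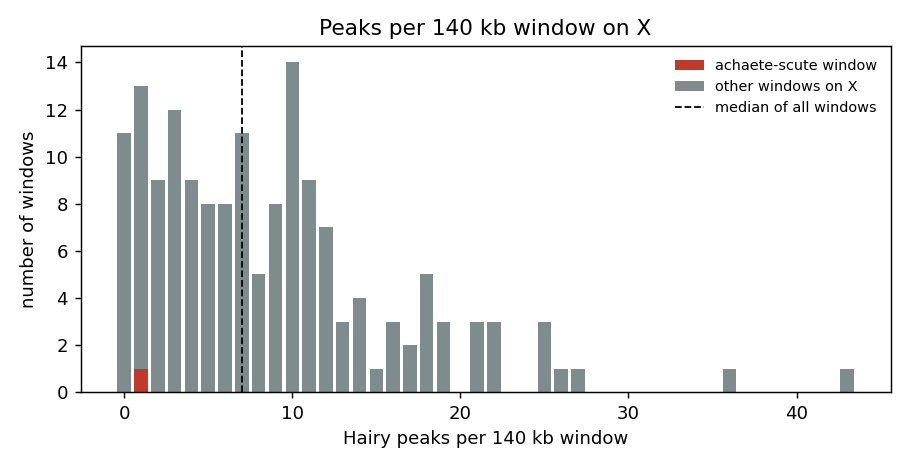
Bars give the number of 140 kb windows on the X by the number of Hairy peaks they hold, with the achaete-scute window first in its bar and the median of 7 as a dashed line. The achaete-scute window is 1 of 13 windows with 1 peak, beside 11 with none.

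The sparse stretch went on distally and ended proximally. The adjacent distal window, 90001 to 230000, also held 1 peak, and the adjacent proximal window, 370001 to 510000, held 10. The window and its distal neighbour together held 2 peaks over 280 kb, and 9 of the 157 pairs of adjacent windows on the X, or 5.73%, held 2 or fewer. From the proximal neighbour inward, 4 adjacent windows held 10, 3, 10 and 9 peaks, and the next, 930001 to 1070000, held 1. The proximal neighbour had a median score of 15.1 over its 10 peaks, a highest score of 23.33 and 4.62% of its bases covered. The low windows of the X were not limited to its tip. Of the 24, 2 were among the 6 windows that end within the first 1000000 bp, 4 among the 15 that start at 20000000 or later, and 18 among the 137 between. The low window 930001 to 1070000 counts among these 18, as it ends past 1000000. The fullest windows of the X, at 19550001 to 19690000 with 43 peaks, 19410001 to 19550000 with 36 and 2470001 to 2610000 with 27, lay far from the complex.

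In score and width the peak of the achaete-scute window was close to the middle of the X. Its score of 11.77 compares with a median of 12.0 and quartiles of 9.85 and 15.8 for the other 1378 X peaks, and 51.6% of X peaks scored 11.77 or more. Its score lay at the 39.0th percentile of the whole list. Its width of 423 bp compares with a median of 376 bp and quartiles of 265 and 588 bp for the other X peaks. Among the 342 other X peaks whose scores were within 10% of its own, the median width was 344.5 bp, with quartiles of 260 and 480.5 bp. The width was thus inside the middle range of peaks of like score. The highest scores of the X ran to 288.75, and the achaete-scute window held none of that kind. Of the 147 windows with a peak, 15 had a highest score of 11.77 or less, and the median of their highest scores was 22.5. The maximum rests on 1 peak here and on several in most other windows. Among the 125 windows with 3 or more peaks, the median score was 11.77 or less in 53.

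Among all X peaks, this peak lay nearer to the extreme by its isolation than by its score or width. That isolation follows in part from the count of 1. The lone peaks of 13 windows lay 25.4 to 177.6 kb from their nearest peak, with a median of 88.2 kb. The nearest neighbour of the achaete-scute peak was 88.2 kb away between midpoints, against a median of 1447 bp for the other X peaks. It had the 10th largest such distance of the 1379 X peaks, and 0.725% of X peaks were as far or farther from the next. Over 2L, 2R, 3L, 3R and X together it was the 27th of 8070. Within 100 kb on either side it had 2 neighbours, where the other X peaks had a median of 17. No peak lay within 1 kb of it, whereas 509 of the other 1378 X peaks, or 36.9%, had one. The 95% Clopper-Pearson interval of this share, 34.4 to 39.5%, treats peaks as independent. Peaks of a close pair count for each other, so the interval cannot be read as the error of the share. For the achaete-scute peak the lack of a neighbour within 1 kb was fixed by the count of 1, since 45314 bp or more of the window lay on each side. A spacing between peaks of the window could not be computed from 1 peak.

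**Figure D3:**
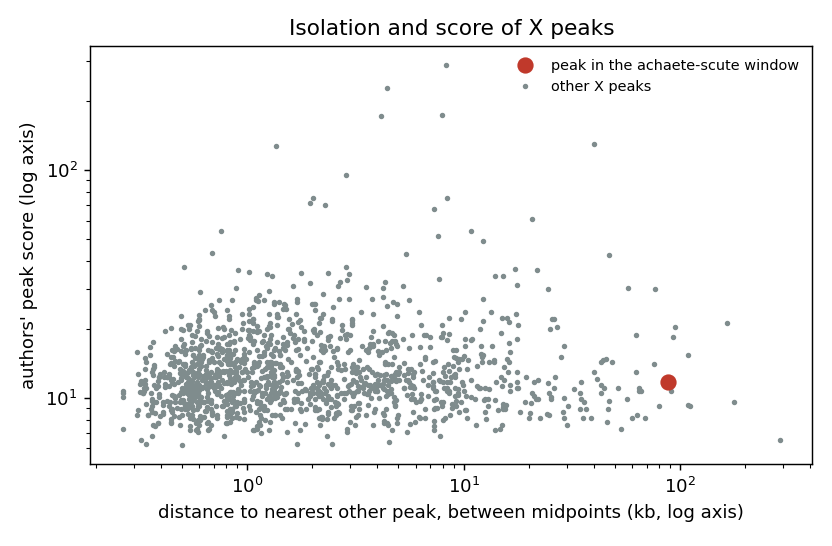
Each point is an X peak, with the distance to its nearest other peak in kb on the horizontal log axis and the authors' score on the vertical log axis. The peak of the achaete-scute window lies at 88.2 kb and 11.77, far to the right and near the middle of the scores.

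Compared with other isolated peaks of the X, the peak of the achaete-scute window was inside their range. The other 79 X peaks without a neighbour within 20 kb had a median score of 10.8 and a median width of 321 bp. Of these 79 peaks, 51 scored no higher than 11.77, and 51 were no wider than 423 bp. In the other 12 windows of the X that held 1 peak, 3 of the peaks scored higher than 11.77 and 9 lower. The scores over all 13 such windows ran from 8.69 to 30.47, with a median of 10.8. In these 12 windows 6 of the peaks were farther from their nearest neighbour than 88.2 kb and 6 were nearer, so the distance was the median of the 13. The range ran from 25.4 to 177.6 kb, and the peak of the adjacent distal window stood at 164.0 kb. By width, 4 of the 12 peaks were wider and 8 narrower, and the 13 widths ran from 219 to 2033 bp with a median of 411 bp. The window with the highest score of the 13, at 9610001 to 9750000, held a peak that covered 1.45% of its bases. The peak of the achaete-scute window thus lay inside the range of the lone peaks in score, width and distance.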

How the data were processed

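One deposited file was analysed, a peak list of the whole series. Per the file headers its coordinates are FlyBase Release 5, and each line names MACS. BWA, MACS2, CASAVA in versions 1.7.0.3 and 1.7.0.2, and the build BDGP5 are named per the submitters' processing notes, without roles. Not given in the sources used here are the pooling of replicates, the control, the threshold and the handling of repeated reads, which decide which peaks are listed. The score was deposited by the authors without a named scale and was compared only within the list. The authors deposited 2 other values per peak, its first and last base, counted from 1. The depth is unknown.

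Peaks were placed by midpoint. Windows of 140 kb, in phase with the one that starts after base 230000, ran up to the last peak end on the X, 22230307. Ranks are descriptions over neighbouring, dependent windows or peaks, without a test. The rule for named regions was every peak of the window, the nearest peak on each side, both neighbouring windows and the 3 fullest windows of the X. The window, the genes and the comparisons were chosen with earlier results of these data known. The ranks of gaps, nearest distances, pairs of windows, lone peaks and their distances, isolated peaks and peaks of like score were chosen after the values were seen. The table of Release 6 genes gave names and order only, and promoter motifs and sequences were not analysed here. The counting steps were tested on 20 simulated lists with known answers. The tools were matplotlib 3.10.9, scipy 1.17.1, pandas 2.3.3 and numpy 2.4.6 under Python 3.11.15.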

Additional observations from a re-analysis of the deposited data

How the results depend on the processing

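No paired analysis was possible because the peaks are not tied to single libraries, so that leaving out a library was not possible either. The achaete-scute window kept its 1 peak of 423 bp and score 11.77 when any overlap of 1 base counted, when peaks within 500 bp were joined, and when its limits were moved in by 20 kb or out by 30 kb. The positions of this peak and its nearest neighbours fixed that outcome beforehand, so these settings could not have changed the peak. Among peaks at or above the list's median score the window held 0 peaks and 0% of it was covered, since 11.77 is under this median of 13.2. Coverage was 0.423% with the limits moved in and 0.211% with the limits moved out, because the same peak was divided by windows of 100 and 200 kb. The share of X windows with no more peaks than this one was 27.6% with windows of 100 kb, 10.8% with 200 kb, 17.2% with windows sliding by 10 kb, 19.6% for peaks at or above the median score and 8.84% among windows with a peak. Chosen after the values were seen, this share was 14.1% among X windows that end by 20000000, and at most 1 peak was found in 8.15% of windows on 2L, 2R, 3L and 3R. Distances of 2, 5 and 10 kb could add no neighbour, since the window held 1 peak with 45314 bp or more of the window on each side. The peak was below scores of 12, 15 and 20. The spacing and motif descriptions planned could not be run. With 1 peak and an unknown depth, no error can be put on its score or width.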
